A study of Homo sapiens with 9 samples.

Results

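The 124 miRNA probes described here carry a miRBase number of 4600 or above and were detected on at least 2 of 9 arrays, out of 2019 miRNA probes on the array and 642 detected that often. A probe was taken where it names 1 human miRNA of that number range and where the authors' normalized intensity is filled and flagged OK on at least 2 arrays. The rule also leaves out 10 numbers, those of miR-4655, miR-4688, miR-4689, miR-4723, miR-4725, miR-4734, miR-4745, miR-4749, miR-4758 and miR-5100. The array holds 481 probes of this range, of which 268 were detected on at least 1 array and 213 on none. The members were chosen by detection in these same samples, so how many arrays detect them is a description and was not tested.

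The samples come from HMC-1, a human cell line derived from a mast cell leukaemia, and all 9 share that 1 line. The LD group is RNA released by the cells and recovered from the low density part of a sucrose gradient, the HD group is released RNA from the high density part, and the Cell group is RNA of the cells themselves. Each group has 3 samples, and samples with the same number come from 1 culture, as the series' design text states. The cells carried no treatment per the labels, and each RNA was labelled with Hy5 and hybridised alone to an array with locked nucleic acid probes.

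A miRNA is a short RNA cut from a hairpin, and it guides the silencing complex to messenger RNAs mainly through its seed, the bases 2 to 8 from its 5′ end. miRBase hands out numbers roughly in the order of registration, so the entries with high numbers are late ones, found for the most part by deep sequencing of small RNAs. Few of them have an established function, and few are conserved as widely as let-7 or miR-21. Cells release RNA in vesicles and in particles without a membrane, and a density gradient separates these carriers by buoyant density.

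The mature sequences below are those on which the comparisons turn. They were taken from RefSeq (build GRCh38.p14), which held a sequence for 108 of the 124 members, and capitals mark the seed. The first set holds the members with a sequence that had the largest rises in HD over Cell, shown because they are built largely of A and G, as described further on.
miR-6076: aGCAUGACagaggagaggugg
miR-6124: gGGAAAAGgaagggggagga
miR-4739: aAGGGAGGaggagcggaggggcccu
miR-6126: gUGAAGGCccggcggaga
miR-6510-5p: cAGCAGGGgagagagaggaguc
miR-6088: aGAGAUGAagcgggggggcg
miR-4698: uCAAAAUGuagaggaagacccca
The second set, shown beside the first, holds the members with a sequence that were lower in HD than in Cell. Its shares of A and G overlap with those of the first.
miR-6131: gGCUGGUCagaugggagug
miR-4638-5p: aCUCGGCUgcgguggacaagu
miR-6724-5p: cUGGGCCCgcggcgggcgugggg
miR-6132: aGCAGGGCuggggauugca
miR-4730: cUGGCGGAgcccauuccaugcca
The third set holds 3 members that were detected on all 9 arrays and were higher than Cell in LD and in HD.
miR-6090: gGGGAGCGaggggcggggc
miR-4787-5p: gCGGGGGUggcggcggcauccc
miR-6125: gCGGAAGGcggagcggcgga

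In the first set, miR-6076 lies at chr14:49966399-49966419 on the plus strand and miR-4739 at chr17:79707216-79707240 on the minus strand, both outside the bounds of every other gene of the RefSeq table. miR-6124 (chr11:12163692-12163711, plus) lies inside MICAL2, miR-6126 (chr16:3485422-3485439, minus) inside NAA60 and miR-6510-5p (chr17:41517194-41517215, minus) inside the keratin gene KRT15. miR-6088 (chr19:45436654-45436673, plus) lies inside ERCC1, a DNA repair gene, and miR-4698 (chr12:47187860-47187882, plus) inside PCED1B. In the second set, miR-6131 (chr5:10478107-10478125, plus) lies inside ROPN1L, miR-6132 (chr7:117020231-117020249, plus) inside ST7 and miR-4730 (chr17:80419427-80419449, plus) inside ENDOV. miR-4638-5p (chr5:181222612-181222632, minus) and miR-6724-5p (chr21:8249515-8249537, plus, the first of 2 loci in the table) lie outside other genes. In the third set, miR-6090 (chr11:128522430-128522448, plus) lies inside ETS1, a transcription factor gene, miR-4787-5p (chr3:50675093-50675114, plus) inside DOCK3 and miR-6125 (chr12:62260418-62260437, plus) inside USP15. Of the 108 members with a position, 93 lie within another gene, 89 of them within a protein-coding one, and 15 lie outside. The table gives the bounds of genes and not their exons, so exon, intron and UTR were not assigned, nor was the strand of the surrounding gene.

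Detected miRNA probes numbered 303 to 368 on LD arrays, 254 to 329 on HD arrays and 440 to 506 on Cell arrays. Of the 6 mast cell and blood cell markers listed for the check of the labels (miR-142-3p, miR-142-5p, miR-223-3p, miR-146b-5p, miR-221-3p and miR-222-3p), every one was detected on all 3 Cell arrays, and 4 of them on no HD array. None of the 5 epithelial markers was detected on all 3 Cell arrays. miR-200b-3p was detected on 2 HD and 2 Cell arrays, miR-200c-3p on 1 LD and 2 Cell arrays, and miR-205-5p on 1 LD and 2 HD arrays. miR-200a-3p was detected on 1 LD array and miR-141-3p on no array. Of the 5 muscle and neural markers, miR-9-5p was detected on all 3 Cell arrays and 2 LD arrays, with a geometric mean of 66.6 in Cell, and the other 4 on at most 1 array. Slides were read from the names of the deposited arrays. All 3 Cell arrays were on 1 slide of their own, the 3 HD arrays shared a slide with LD replicate 1, and LD replicates 2 and 3 were on another slide. Slide and group therefore cannot be told apart in either comparison with Cell. The authors scaled each array to the median of its detected miRNA probes, so every level is relative to the other probes of that array. The amount of RNA was not measured, and in such bulk RNA fewer cells or particles holding a miRNA and less of it in each cannot be told apart.

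The members were detected about as often in the released RNA as in the cells. LD arrays detected 55, 48 and 60 of the 124, HD arrays 64, 69 and 54, and Cell arrays 60, 60 and 57, with overlapping ranges. On all 3 arrays of a group, 27 members were detected in LD, 33 in HD and 30 in Cell. The number of arrays that detected a member was uneven: 47 members were detected on exactly 2 arrays, 23 on 3, 12 on 4, 5 on 5, 9 on 6, 4 on 7, 7 on 8 and 17 on all 9.

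**Figure D1:**
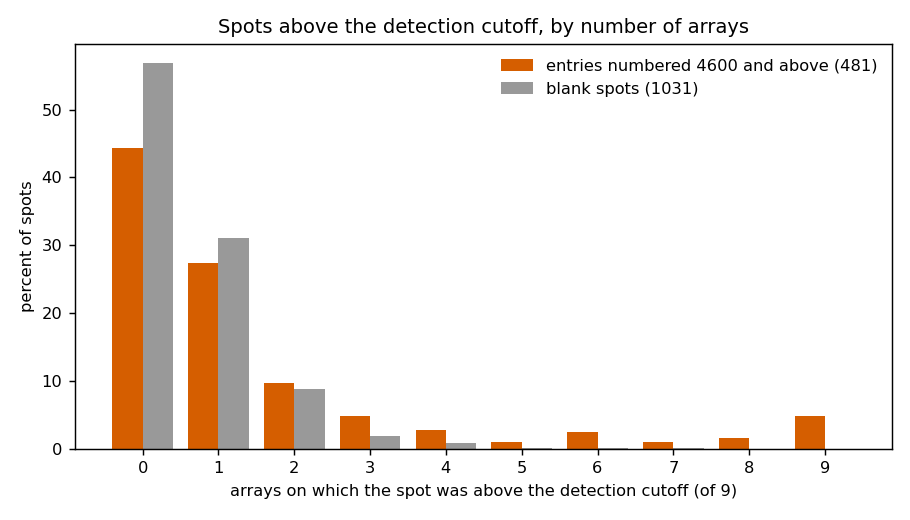
Percent of spots (vertical axis) by the number of arrays, 0 to 9, on which the spot was above the detection cutoff, for the 481 entries numbered 4600 and above, the 10 left-out numbers included, and for the 1031 blank spots. Entries and blank spots have like shares at exactly 2 arrays (9.77% and 8.83%), and entries stand alone at 9 arrays.

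Blank spots, which hold no probe, show what the authors' cutoff lets through, as the plot of spots by number of arrays shows. On single arrays 14.35% to 19.54% of the 481 entries of this range were above the cutoff, against 5.53% to 7.57% of the 1031 blank spots. At exactly 2 arrays the share was 9.77% (47 entries) against 8.83% (91 blank spots), so the members detected on exactly 2 arrays were about as frequent as blank spots that were. At 5 arrays or more it was 11.02% against 0.48%, and 23 entries but 0 blank spots were above the cutoff on all 9. Just inside the rule, the 47 members detected on exactly 2 arrays had detected signals between 9.714 and 95.339, with a median of 15.063. Just outside it, the 129 probes detected on exactly 1 array lay between 9.695 and 67.731, with a median of 14.099.

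Levels were compared for the 45 members that some group detected on each of its 3 arrays. They entered a test with every other such probe, 334 in all. The remaining 79 members had no such group and were not tested. The value tested was the log2 of the authors' normalized intensity, with undetected values replaced by the floor, that is the lowest value detected on the array in question, which lay between 9.599 and 13.491. The test was limma with culture as a block, and a change was called where p was under 0.05 after Benjamini-Hochberg adjustment over all 334. A moderated F test, which asks whether the groups differ in any way, called 32 of the 45 members, or 71.1%, against 278 of all 334 probes, or 83.2%. A member enters the test through a group in which it is high, so the counts below describe these 45 and support nothing about the 124. Through HD alone entered 11 members, through LD alone miR-5739 and through Cell alone 5, and these had to stand high in that group. No p-value is printed for a comparison of such a member that involves its own group, and a call of it is a description. Where arrays of the lower group alone are at the floor, the fold understates the difference. Where the higher group has floors too, the direction of the error is not known.

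HD was set against Cell to ask which entries of the cells' profile are found in the dense released RNA. Of the 45 members, 24 were higher in HD, where 30.5% of all tested probes were higher. Lower in HD were 6 members, where 49.4% of all tested probes were lower, and 15 members were not called. The members' median log2 change was 0.91, against -0.70 over all tested probes. Entries numbered from 1000 up to 4000 had 32 higher and 14 lower of 65 and a median of 0.69, and those numbered from 4000 up to 4600 had 18 higher and 15 lower of 39 and a median of 0.41. Entries numbered under 1000 went the other way, with 21 higher and 127 lower of 172 and a median of -2.18. The tested probes of the left-out numbers, 11 of them, had 7 higher and 2 lower.

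miR-6076 had the largest rise in HD over Cell. It had signals of 472, 452 and 310 in HD, against 20.7 and 11.2 on 2 Cell arrays and none on Cell replicate 2. The groups lay far apart, and the log2 change was 4.92 ± 0.33, or 30.4-fold (limma, Benjamini-Hochberg adjusted p = 3.62e-07). Here and below ± gives the SE of the model, with n = 3 per group unless an array was left out. miR-6124, whose sequence holds only A and G, had signals of 300, 453 and 217 in HD and was detected on no Cell array. Set against the floors of the Cell arrays, it was at least 30.2-fold higher in HD (adjusted p = 1.05e-06 by limma).

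miR-4792 had signals of 435, 369 and 238 in HD against 12.2, 14.6 and 17.4 in Cell, just above the floor there, and a log2 change of 4.53 ± 0.42 (adjusted p = 2.79e-06 by limma). Every HD array lay above every Cell array for it. miR-4739 had signals of 2437, 3999.2 and 2088 in HD against 192, 171 and 145 in Cell, a 16.2-fold difference (log2 4.02 ± 0.31, adjusted p = 8.26e-07 by limma). Its 3 Cell values agreed closely, with an SD of 0.206 on the log2 scale against 0.49 in HD. miR-6126 had signals of 3588, 5585 and 1829 in HD against 262, 259 and 205 in Cell, 13.8-fold higher in HD (log2 3.79 ± 0.40, adjusted p = 8.2e-06 by limma).

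miR-6510-5p had signals of 119, 235 and 105 in HD and was detected on 1 Cell array, at 12.1. Its log2 change was 3.69 ± 0.43, which understates the difference because 2 Cell values are floors. miR-6088 had signals of 1638 and 584 in HD and of 73.7, 74.0 and 71.2 in Cell. For it HD replicate 1 was marked NG, a mark not defined in the sources used here. That value was left out of the fit, so HD had n = 2. The log2 change of miR-6088 was 3.67 ± 0.61 (adjusted p = 0.000375 by limma), the largest standard error among these 8 members. miR-4698 was detected on the 3 HD arrays, at 103, 124 and 79.8, and on no other array. It was at least 9.84-fold above the Cell floors in HD, through which alone it entered the test.

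**Figure D2:**
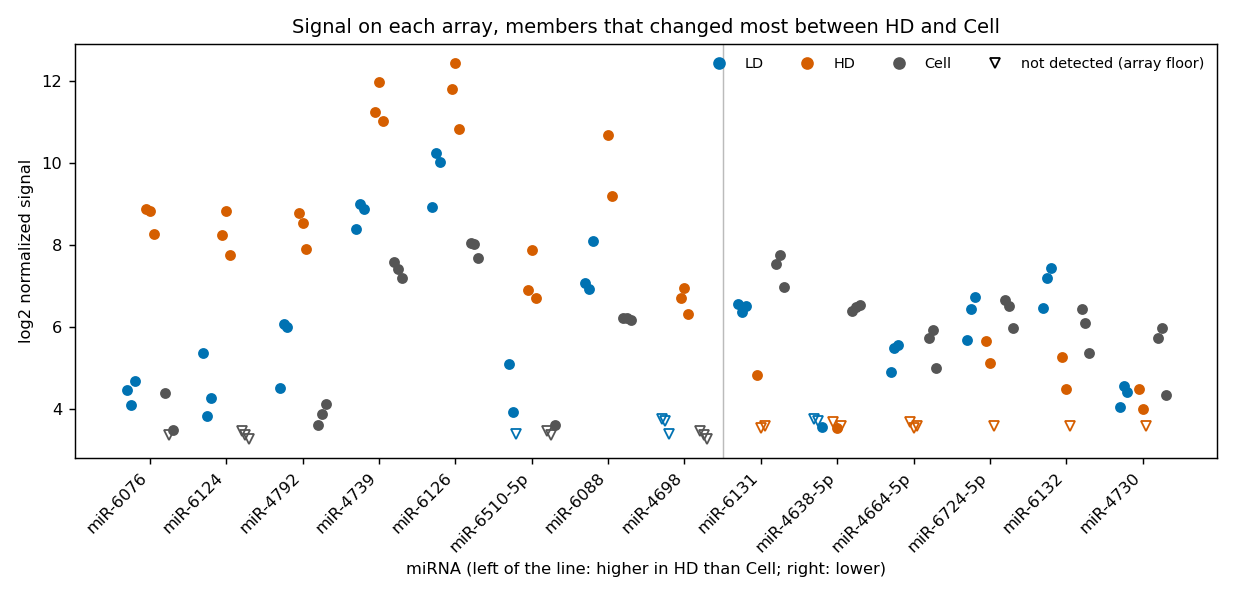
The log2 normalized signal (vertical axis) of the members with the largest rises (left of the line) and of the 6 that were lower in HD than in Cell (right of the line), with 1 point per array in LD, HD and Cell and open triangles at the array's floor where a probe was not detected. HD points lie above LD and Cell points for all 8 members left of the line, and each member right of the line has at least 1 HD array at the floor.

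The next members by size of the rise were miR-6087, miR-5787, miR-4651, miR-6722-3p and miR-6085. miR-6087 had signals of 2352, 2126 and 772 in HD against 314, 280 and 211 in Cell, and a log2 change of 2.57 ± 0.46 (adjusted p = 0.000436 by limma). miR-5787, inside GNAI2, a G protein subunit gene, had signals of 3113, 2115 and 1892 in HD against 519, 412 and 352 in Cell, 5.49-fold higher (adjusted p = 6.22e-05 by limma). miR-4651, inside the gene POR of the reductase that feeds electrons to cytochrome P450 enzymes, had signals of 271, 298 and 113 in HD against 61.8, 38.9 and 26.9 in Cell, 5.20-fold higher (adjusted p = 5.52e-05 by limma). In none of these did an HD array overlap with a Cell array. miR-6085 had signals of 458, 779 and 332 in HD against 131, 103 and 85.1 in Cell (log2 2.23 ± 0.34), and miR-6722-3p had 51.2, 91.0 and 43.4 in HD against 17.7 on 1 Cell array (log2 2.29 ± 0.36).

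Several rises rest on probes near the floor in Cell. miR-4740-3p had signals of 37.5, 46.2 and 58.3 in HD and was detected on no Cell array, so it was at least 4.55-fold above the Cell floors in HD. miR-5006-5p was detected on the 3 HD arrays, at 27.3, 36.9 and 16.9, and on no other, and was at least 2.51-fold above the Cell floors. miR-4665-5p had 44.1, 52.1 and 37.0 in HD against 11.9 on 1 Cell array, and miR-4728-5p, inside the receptor gene ERBB2, had 35.1, 85.8 and 40.3 against 16.8 on 1 Cell array. Their log2 changes were 2.03 ± 0.40 and 2.00 ± 0.38, and these 4 members entered the test through HD alone. The other members higher in HD had smaller changes. miR-6075 (1.53), miR-4667-5p (1.29), miR-4649-5p (0.97), miR-5088 (0.96), miR-6090 (0.95), miR-4787-5p (0.91) and miR-6125 (0.87) make up the 24.

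The calls of those smallest rises ended when single samples were left out, in some cases without a smaller log2 change. The call of miR-6125 ended when any Cell array was left out (0.88, 1.04 and 0.71 without Cell replicates 1, 2 and 3), and without HD replicate 1 (0.68), HD replicate 2 (0.77) or LD replicate 2 (0.87). That of miR-4787-5p ended without Cell replicate 2 (0.88), Cell replicate 3 (0.70), HD replicate 1 (0.82) or HD replicate 2 (0.86). That of miR-4649-5p ended without any of the Cell replicates 1, 2 and 3 (0.96, 0.95 and 1.02), or without HD replicate 2 (0.64). miR-5088 was not called without Cell replicate 3 (0.47), HD replicate 2 (0.90) or HD replicate 3 (0.90), and miR-6090 without Cell replicate 3 (0.90) or HD replicate 1 (0.83).

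Each of the 6 members lower in HD than in Cell was undetected on at least 1 HD array. miR-6131 had a signal of 28.1 on HD replicate 1 and none on the other HD arrays, against 186, 216 and 126 in Cell, and fell by 3.45 on the log2 scale (SE 0.35, adjusted p = 5.37e-06 by limma), with 2 HD values at the floor. miR-4638-5p was detected at 11.6, the floor of that array, on HD replicate 2 alone, against 82.8, 88.6 and 91.9 in Cell, which were the most even Cell values of the members lower in HD (SD 0.077 on the log2 scale). Its log2 change against the HD floors was -2.86 (SE 0.27). miR-4664-5p was detected on no HD array, against 52.7, 60.8 and 31.8 in Cell, and was at least 3.86-fold lower in HD (adjusted p = 0.000276 by limma).

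For the other 3 the HD arrays disagreed. miR-6724-5p had signals of 50.3 and 34.8 in HD and none on HD replicate 3, against 101, 90.9 and 62.9 in Cell (log2 change -1.59 ± 0.48, adjusted p = 0.0107 by limma). miR-6132 had 38.3 and 22.3 in HD and none on HD replicate 3, against 86.0, 67.9 and 41.3 in Cell (-1.52 ± 0.44, adjusted p = 0.00872 by limma). Without HD replicate 3 neither was called, at -0.98 and -1.14. The miR-6724-5p call also ended without Cell replicate 1 (-1.52) or Cell replicate 3 (-1.61), and that of miR-6132 without Cell replicate 1 (-1.35). miR-4730 had 22.1 and 15.97 in HD and none on HD replicate 3, against 52.7, 62.9 and 20.1 in Cell, so that the groups overlapped; its log2 change was -1.33 ± 0.38 (adjusted p = 0.00788 by limma), or -1.06 and not called without Cell replicate 2.

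LD was set against the same Cell samples to ask which entries are found in the light released RNA; the 2 comparisons with Cell share those 3 arrays. Of the 45 members, 10 were higher in LD, where 16.8% of all tested probes were higher, 3 were lower, where 44.0% of all tested probes were lower, and 32 were not called. The median log2 change was 0.26, against -0.54 over all tested probes. The median equals the difference of the floors (0.255), since it falls on the members undetected in both groups, miR-4698 and miR-5006-5p. Entries numbered from 1000 up to 4000 had 18 higher and 11 lower of 65, entries numbered from 4000 up to 4600 had 11 higher and 9 lower of 39, and entries numbered under 1000 had 9 higher and 123 lower of 172. The left-out numbers had 8 higher and 0 lower of 11.

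The largest rise in LD over Cell was that of miR-6126. It had signals of 487, 1218 and 1032 in LD against 262, 259 and 205 in Cell, 3.53-fold higher (log2 1.82 ± 0.40, adjusted p = 0.00264 by limma). miR-4792 had 22.5, 66.5 and 63.2 in LD against 12.2, 14.6 and 17.4 in Cell (1.65 ± 0.42, adjusted p = 0.00605 by limma), a call that ended without Cell replicate 2 (1.48). In both, LD replicate 1, the one on the slide of the HD arrays, was the lowest LD value. miR-4739 had 332, 513 and 467 in LD against 192, 171 and 145 in Cell (1.35 ± 0.31), and miR-4651 had 97.1, 123 and 82.2 against 61.8, 38.9 and 26.9 (1.31 ± 0.32). miR-6722-3p had 22.2, 24.9 and 26.8 in LD against 17.7 on 1 Cell array (1.03 ± 0.36). miR-6124 had 40.8, 14.1 and 19.1 in LD and was detected on no Cell array, so it was at least 2.17-fold higher (adjusted p = 0.0303 by limma).

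The calls of miR-6722-3p and miR-6124 in LD ended when single samples were left out. In part this came without a smaller log2 change, which was 1.03 and 1.12 with all samples. That of miR-6722-3p ended without Cell replicate 2 (0.75), Cell replicate 3 (0.95), LD replicate 2 (1.12) or LD replicate 3 (0.78). That of miR-6124 ended without any of the Cell replicates 1, 2 and 3 (0.96, 1.14 and 1.25), or without LD replicate 1 (0.70).

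The 3 GC-rich members of the third set of sequences were called higher than Cell in LD and in HD, which share the Cell arrays. miR-6125 had signals of 327, 262 and 420 in LD, 306, 240 and 132 in HD, and 139, 138 and 82.1 in Cell, with log2 changes over Cell of 1.50 ± 0.36 in LD (adjusted p = 0.00426 by limma) and 0.87 ± 0.36 in HD. miR-6090 had 654, 837 and 776 in LD, 629, 624 and 373 in HD, and 319, 292 and 219 in Cell, with changes of 1.46 ± 0.29 in LD (adjusted p = 0.00145 by limma) and 0.95 ± 0.29 in HD. miR-4787-5p had 559, 959 and 813 in LD, 673, 834 and 413 in HD, and 412, 412 and 206 in Cell, with changes of 1.21 ± 0.34 in LD (adjusted p = 0.00925 by limma) and 0.91 ± 0.34 in HD. For all 3 the LD and Cell arrays did not overlap. None of the 3 differed between LD and HD past the threshold, with log2 changes of 0.63 ± 0.36, 0.51 ± 0.29 and 0.30 ± 0.34. The LD call of miR-4787-5p ended without Cell replicate 3 (1.00) or LD replicate 3 (0.85).

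miR-5739 was brighter in LD than on the few other arrays that detected it. It had signals of 62.6, 30.1 and 35.6 in LD, 21.3 on 1 HD array, and 22.5 and 23.7 on 2 Cell arrays (LD over Cell 1.24 ± 0.38). That call ended without Cell replicate 3 (0.94) or LD replicate 1 (0.97). The 3 members lower in LD than in Cell were miR-4638-5p, miR-4730 and miR-6131. miR-4638-5p was detected at 11.7 on LD replicate 3 alone, and its log2 change in LD, largely against floors, was -2.79 (SE 0.27) from the Cell values given above. miR-6131 had 94.0, 82.1 and 90.8 in LD against 186, 216 and 126 in Cell (-0.95 ± 0.35, adjusted p = 0.0359 by limma), and miR-4730 had 16.6, 23.5 and 21.0 in LD against 52.7, 62.9 and 20.1 in Cell (-1.01 ± 0.38, adjusted p = 0.039 by limma). miR-4730 was lower in 2 of 3 cultures and its groups overlapped. Both calls were lost when single samples were left out, down to -0.64 for miR-6131 without Cell replicate 2 and -0.66 for miR-4730 without LD replicate 1.

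**Figure D3:**
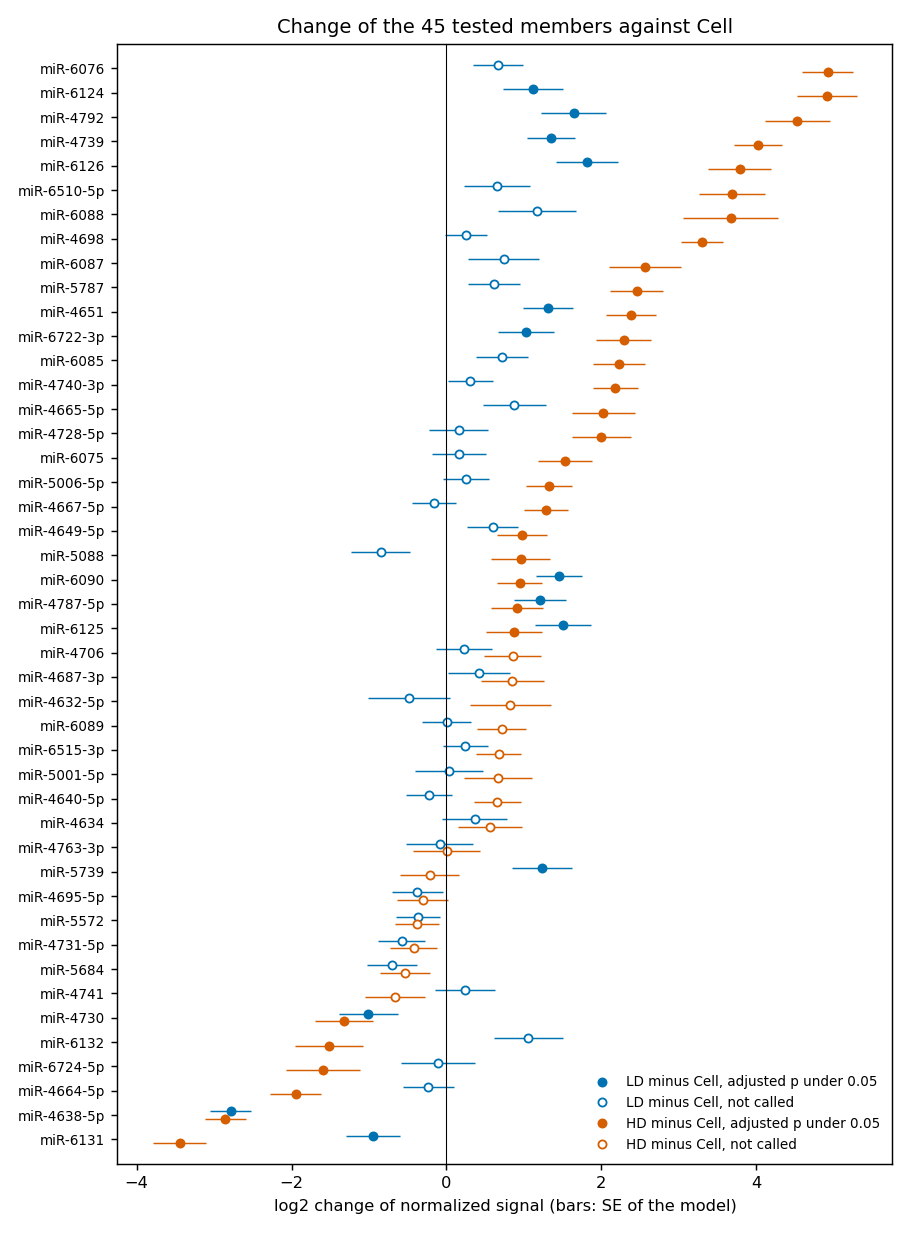
The log2 change of normalized signal over Cell (horizontal axis) of the 45 tested members in LD and in HD, with bars for the standard error of the model and filled points for an adjusted p under 0.05. Filled HD points reach 4.92 to the right and -3.45 to the left, while LD points lie between -2.79 and 1.82.

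LD was set against HD to ask how the light and dense released RNA differ. Of the 45 members, 21 were lower in LD than in HD, where 26.3% of all tested probes were lower, 5 were higher, where 25.7% of all tested probes were higher, and 19 were not called. The median log2 change was -0.71, against 0.01 over all tested probes, and 0.14 for the 172 entries numbered under 1000. LD replicate 1 and the HD arrays were on 1 slide. LD replicate 1 minus the mean of the HD arrays, values that enter the calls themselves, lay between -4.21 (miR-6076) and -0.74 (miR-4640-5p) for the 21 lower members and between 0.89 (miR-6724-5p) and 2.58 (miR-6131) for the 5 higher ones.

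miR-6076 differed most between LD and HD. It had signals of 21.8, 17.0 and 25.5 in LD against the HD values of 472, 452 and 310, and fell by 4.26 on the log2 scale (SE 0.33, adjusted p = 6.27e-06 by limma), with the same direction on the shared slide. In LD it stood close to Cell, with a log2 change over Cell of 0.67 ± 0.33 that was not called (adjusted p = 0.102 by limma). miR-6124, at the LD values given above, was 13.9-fold lower in LD than in HD (adjusted p = 2.46e-05 by limma). miR-6510-5p had 33.9 and 15.1 in LD and none on LD replicate 3, and was 8.20-fold lower in LD. miR-4698, detected on no LD array, was at least 8.24-fold lower in LD.

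miR-4792, miR-4739 and miR-6126 were lower in LD than in HD, by 2.89, 2.67 and 1.97 on the log2 scale, while also higher than in Cell. Their levels thus ran in the order HD, LD, Cell, and no neighbours in that order overlapped on any array. miR-6088 had signals of 134, 121 and 275 in LD against 1638 and 584 in HD, and fell by 2.50 (SE 0.61, adjusted p = 0.00696 by limma). Leaving out HD replicate 2 as well left a single HD value for miR-6088 and a log2 change of -1.47. miR-6087 had 270, 499 and 641 in LD, all below its HD values, and was 3.55-fold lower (adjusted p = 0.00677 by limma). miR-5787 had 509, 590 and 904 in LD, also all below HD, and was 3.58-fold lower (adjusted p = 0.00113 by limma). The other 11 members lower in LD had log2 changes between -1.87 and -0.88. Among them miR-4665-5p and miR-4651 overlapped between LD and HD, and the calls of miR-4640-5p, miR-4651, miR-4665-5p, miR-5006-5p and miR-6722-3p ended without single samples.

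The 5 members higher in LD than in HD were not detected on all HD arrays. miR-6132 had signals of 88.3, 145 and 172 in LD against 38.3 and 22.3 on 2 HD arrays, 5.98-fold higher in LD (log2 2.58 ± 0.44, adjusted p = 0.000654 by limma). miR-6131, with the LD values given above against 28.1 on 1 HD array, was 5.64-fold higher with 2 HD values at the floor (2.50 ± 0.35, adjusted p = 0.00018 by limma). miR-4664-5p had 29.9, 44.5 and 46.8 in LD and was detected on no HD array, so it was at least 3.27-fold higher (adjusted p = 0.00146 by limma). For all 5, no LD array overlapped with an HD array. miR-6724-5p had 51.0, 86.2 and 105 in LD against 50.3 and 34.8 on 2 HD arrays (1.49 ± 0.48, adjusted p = 0.0239 by limma), a call that ended without HD replicate 3 (0.88) or LD replicate 3 (0.86), among others. miR-5739 had a log2 change of 1.45 ± 0.38, with 2 HD values at the floor.

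Members detected on all 9 arrays do not depend on floor values. There were 17 of them, among which miR-4792, miR-4739, miR-6126, miR-6087, miR-5787, miR-4651, miR-6085, miR-6090, miR-4787-5p and miR-6125 have been given with their values. miR-6075, inside LPCAT1, had signals of 29.5, 30.9 and 43.1 in LD, 130, 78.5 and 65.8 in HD, and 31.8, 38.3 and 22.8 in Cell. miR-4667-5p, inside the kinase gene TESK1, had 28.3, 22.5 and 26.4 in LD, 59.5, 84.3 and 68.0 in HD, and 26.9, 32.5 and 26.5 in Cell. In both, HD stood above LD and Cell on every array, and LD and Cell overlapped. LD minus HD was -1.36 ± 0.35 for miR-6075 (adjusted p = 0.00749 by limma) and -1.45 ± 0.28 for miR-4667-5p (adjusted p = 0.00162 by limma).

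The other 5 of the 17 were not called in any comparison, and their groups overlapped. miR-6089 had signals of 634, 617 and 614 in LD, 1124, 1544 and 604 in HD, and 717, 672 and 492 in Cell. miR-4687-3p, inside the calcium sensor gene STIM1, had 42.4, 74.0 and 88.8 in LD, 74.1, 150 and 61.3 in HD, and 62.4, 42.0 and 44.2 in Cell. Both had an HD mean above the other groups, with log2 changes over Cell of 0.71 ± 0.32 and 0.85 ± 0.41. miR-4634 had 31.5, 53.7 and 49.96 in LD, 81.4, 68.9 and 22.8 in HD, and 32.9, 48.0 and 25.1 in Cell. miR-5001-5p had 15.3, 24.7 and 22.2 in LD, 57.4, 36.3 and 15.0 in HD, and 29.8, 26.9 and 9.66 in Cell. For both, HD replicate 3 was the lowest HD value, and their log2 changes in HD over Cell were 0.56 ± 0.42 and 0.67 ± 0.44. miR-4741 had 56.5, 75.9 and 63.4 in LD, 59.7, 45.1 and 15.5 in HD, and 68.0, 55.1 and 43.8 in Cell. It was the one of the 17 with an HD mean below Cell, at -0.66 ± 0.39.

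The 79 members that were not tested stood mostly at the floor. Their 207 detected values lay between 9.714 and 388.672, with a median of 15.405, and 7 values in 6 members exceeded 50. Of these members, 47 were detected on 2 arrays, 21 on 3, 7 on 4, 2 on 5 and 2 on 6. The highest value was that of miR-4732-5p, which had signals of 25.0 and 23.3 on 2 LD arrays, 389 and 197 on both usable HD arrays, and 16.5 and 24.5 on 2 Cell arrays. It had no group with 3 detected arrays because HD replicate 2 was marked NG. When probes detected on at least 2 arrays were tested, miR-4732-5p was higher in HD than in Cell by 4.15 ± 0.44 on the log2 scale (adjusted p = 0.000224 by limma) and lower in LD than in HD by 3.83 (SE 0.44, adjusted p = 0.000969 by limma). Without HD replicate 2 in that fit, HD had n = 2. This member was singled out for its high HD values, so both calls are descriptions.

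The sequence of miR-4732-5p is shown because its hairpin neighbours one known from red cells.
miR-4732-5p: uGUAGAGCagggagcaggaagcu
It lies at chr17:28861700-28861722 on the minus strand, with 132 bases between it and miR-144-3p, a miRNA of red cell development. Of the 4 red cell, liver and serum markers, miR-144-3p was detected on 1 HD array and on no LD or Cell array. miR-451a, a red cell miRNA, had geometric mean signals of 61.1 in LD, 150.4 in HD and 27.7 in Cell, and was detected on 3, 3 and 2 arrays of these groups. miR-486-5p was detected on 1 LD array, 2 HD arrays and no Cell array, and miR-122-5p on 1 Cell array alone. The part of other cells or of serum in these values was not tested. In that wider test 17.3% of all probes were higher in HD than in Cell and 12.6% lower in LD than in HD. It also called 3 further members higher in HD than in Cell, miR-4788 (0.95 ± 0.30), miR-4665-3p (0.94 ± 0.31) and miR-6165 (0.80 ± 0.22), each of them detected on 2 HD arrays. miR-4788 was detected on no other array and entered that test through HD alone, so its call is a description.

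Few members were found in 1 kind of sample alone. Over any number of arrays, 4 members were detected on LD arrays only (miR-4649-3p, miR-4711-3p, miR-4779 and miR-5698), 6 on HD arrays only (miR-4698, miR-5006-5p, miR-4768-3p, miR-4788, miR-4800-3p and miR-5001-3p) and 4 on Cell arrays only (miR-4657, miR-4690-5p, miR-5096 and miR-5585-3p). Of these, miR-4698 and miR-5006-5p were detected on all 3 arrays of their group. The others rest on 2 arrays, where blank spots passed the cutoff about as often as entries of this range.

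Both arms of 17 hairpins were members, yet for none of them were both arms tested. For 10 hairpins 1 arm was tested and for 7 neither was. miR-4787-5p was detected on all 9 arrays, while the other arm of its hairpin, miR-4787-3p, was detected on 1 LD array (27.0), 2 HD arrays (12.2 and 52.2) and no Cell array. miR-5001-5p was likewise detected on all 9 arrays and miR-5001-3p on 2 HD arrays (55.3 and 17.7). miR-4638-5p was detected on all Cell arrays and miR-4638-3p on 1 of them (12.5) and on LD replicate 1 (15.5). Signals of the 2 arms come from different probes, so their levels were not compared.

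Members that share a seed were rarely both measurable. miR-4739 and miR-4756-5p share the seed AGGGAGG, as the 2 lines show.
miR-4739: aAGGGAGGaggagcggaggggcccu
miR-4756-5p: cAGGGAGGcgcucacucucugcu
miR-4756-5p (chr20:54068452-54068474, minus) was detected on 2 LD, 1 HD and 2 Cell arrays at 11.3 to 20.4 and was not tested, while miR-4739 rose 16.2-fold in HD. miR-4741 shares its seed with miR-4675, which was detected on 1 HD and 1 Cell array. Some members share a seed with a tested entry of lower number. miR-4665-5p has that of miR-1275, whose log2 changes were 5.00 in HD and 1.01 in LD over Cell, against 2.03 and 0.88 for miR-4665-5p. miR-6722-3p has that of miR-1909-3p (4.41 in HD and 0.85 in LD, against 2.29 and 1.03 for miR-6722-3p), and miR-4728-5p that of miR-149-3p (2.35 and 0.65, against 2.00 and 0.16 for miR-4728-5p). miR-5787 and miR-4505 share a seed and differed in sign between HD and Cell, at 2.46 for miR-5787 and -2.17 for miR-4505. A shared seed thus went with like and with unlike changes.

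The tested members were rich in G, and in A and G together. Over the 40 tested members with a sequence the median GC content was 71.1%, the median G content 52.5% and the median share of A and G 68.4%. All 2370 mature sequences of the RefSeq table had medians of 52.2%, 27.3% and 50%, and the 191 undetected entries of this number range with a sequence had 47.4%, 23.8% and 50%. The classes most alike stood close to the members: over all 108 members with a sequence the medians were 63.6%, 40% and 60.0%. Entries numbered from 1000 up to 4000 and detected on at least 2 arrays had 65.2%, 37.5% and 59.1%, and those from 4000 up to 4600 had 61.1%, 40.9% and 63.6%. The 15 members with a sequence detected on all 9 arrays had a median GC content of 78.3% and the 39 detected on exactly 2 arrays one of 50%. Probe signal depends on base composition, and the part of that in detection was not tested. The run GGGG was found in 60.0% of the 40 tested members against 11.7% of all mature sequences, and GGAG in 52.5% against 15.7%. Over all members with a sequence GGGG was found in 29.6%, against 31.1% and 25.4% in those 2 classes. Both were searched on the strand of the mature RNA, could overlap, and were picked after the sequences of the risers had been seen. A match is a string of letters in a mature sequence and no more.

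**Figure D4:**
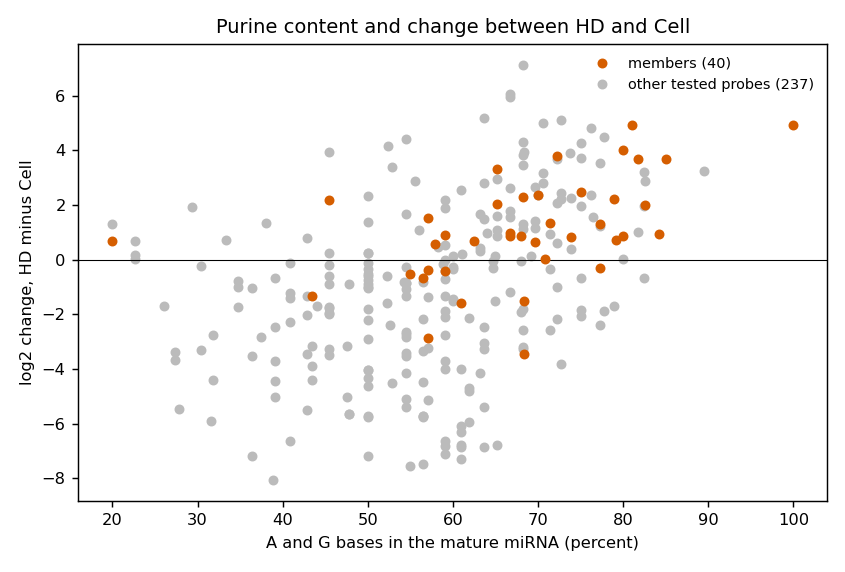
Percent of A and G bases in the mature miRNA (horizontal axis) against the log2 change in HD over Cell (vertical axis), for the 40 tested members with a sequence and 237 other tested probes. The member at 100% is miR-6124, and the members above a change of 3 lie between 65.2% and 100%.

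Within the members, the share of A and G went with the change in HD over Cell, and GC content did not in the same way. Across the 40 members Pearson's r with the HD change was 0.48 for the share of A and G and -0.10 for GC content. Across the 237 other tested probes with a sequence it was 0.36 and 0.59. Across the 80 tested entries numbered from 1000 up to 4600, the classes most alike, it was 0.35 and 0.32. Probes on the same arrays share labelling, scaling and floors and are not independent, so these are descriptions with no test. The 21 members with a sequence that were higher in HD had a median of 75.0% A and G, the 5 that were lower 60.9%, and the 14 not called 64.6%. miR-6131, the member that fell most in HD, has 68.4% A and G, so a high share occurs on both sides. The same share in miR-6132, also lower in HD, is above the 65.2% of miR-4698, which was higher in HD. With LD over Cell r was 0.39 for the share of A and G and 0.29 for GC content. Across the 237 other probes it was 0.29 and 0.67, and across those 80 entries it was 0.22 and 0.47.

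**Figure D5:**
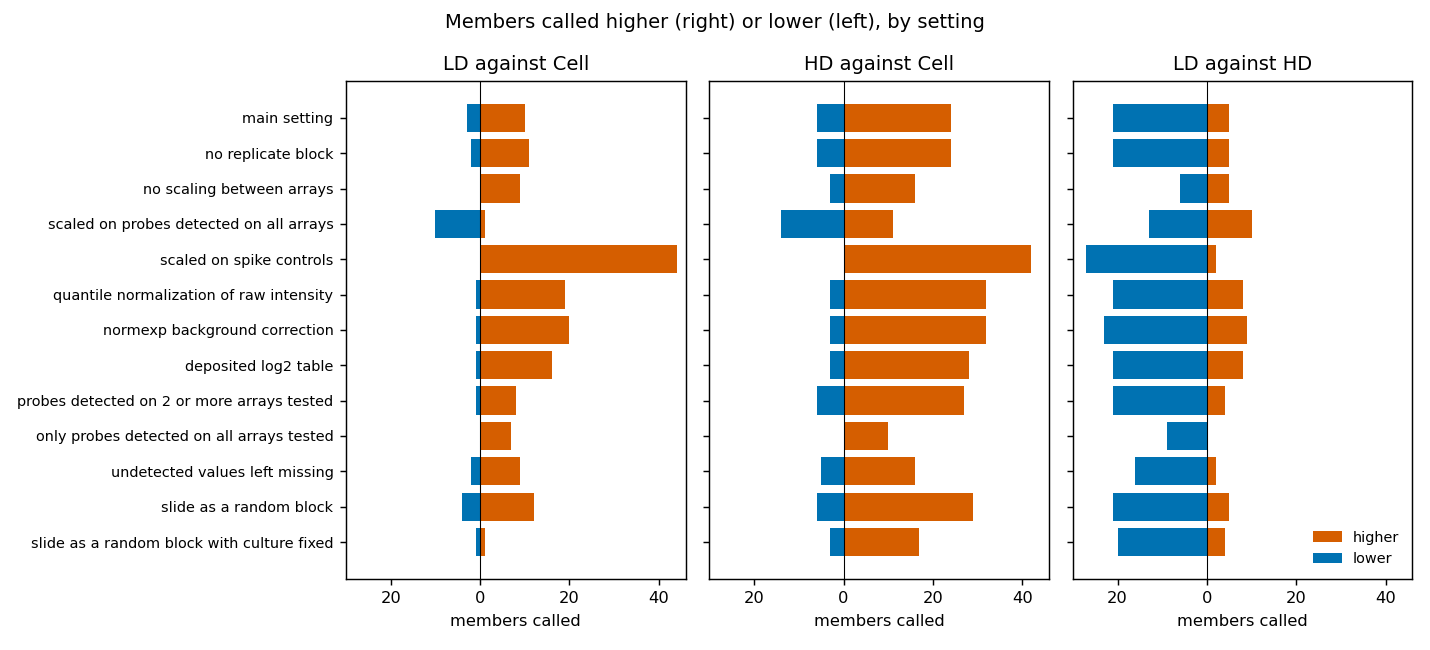
Number of tested members called higher (right) and lower (left) under each way of processing (rows), in LD against Cell, HD against Cell and LD against HD. In HD against Cell the bars reach from 10 to 42 members higher and from 0 to 14 lower. The settings differ in how many members they tested. The 10 higher are of the 17 members detected on all arrays, and 124 were tested with probes detected on 2 or more arrays.

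How many members were called depended on how arrays were scaled, as the counts by setting show, and the calls over all 334 probes shifted with them. On the spike controls 42 members were higher and 0 lower in HD than in Cell, beside 223 and 56 of all probes. With scaling on those probes that all arrays detected, 11 were higher and 14 lower, beside 55 and 220 of all probes, and the members' median turned to -0.54. With slide as a random block in place of culture, 29 were higher and 6 lower in HD than in Cell (108 and 167 of all probes), and 12 and 4 in LD than in Cell (66 and 152). With slide as a random block and culture kept, an alternative added after seeing the data, 17 were higher and 3 lower in HD than in Cell (79 and 133 of all probes), and 1 and 1 in LD than in Cell (16 and 117). The correlation within slides was estimated at -0.0971 without culture and at 0.521 with it. All Cell arrays were on a slide of their own, so neither fit separates slide from group in a comparison with Cell. Counting every alternative and every left-out sample that gave a value, 19 of the 69 calls of members were kept. They include 11 in HD over Cell, all higher: miR-6076, miR-6124, miR-4792, miR-4739, miR-6126, miR-6510-5p, miR-6088, miR-4698, miR-6087, miR-5787 and miR-4651, of which miR-6510-5p and miR-4698 entered the test through HD alone. In LD against HD 8 were kept, of which miR-6131 and miR-6132 were higher in LD, and miR-6076, miR-6124, miR-4792, miR-4739, miR-6510-5p and miR-4698 lower, the last 2 again members that entered through HD alone. In LD against Cell 0 of 13 were kept. For miR-6088, leaving out HD replicate 2 or 3 left a single HD value. Its kept call in HD over Cell thus rests in part on fits without spread in HD. The share of calls kept over all 334 probes was not counted, so these counts describe the members' calls alone.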

How the data were processed

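The deposited array files give a raw, a background-subtracted and a globally normalized intensity per spot, per the file headers, and the series table gives log2 values made by the authors. For the scanner and its software, no name was given in the sources used here. Values are empty where the authors did not detect a spot. The main values were log2 of the deposited normalized intensity; values marked other than OK were left out and undetected ones set to the array's lowest detected value. All tests used limma 3.58.1 (R 4.3.3) (functions lmFit, eBayes and contrasts.fit), with all 9 samples in 1 fit, culture as a fixed block, 4 residual and 6.05 prior degrees of freedom, two-sided p-values and Benjamini-Hochberg adjustment over 334 probes. The pipeline was tested on simulated data. Tables were made with pandas 2.3.3 and figures with matplotlib 3.10.9 in Python 3.11.15. The pairing comes from the design text of the series; over the 9 pairs of samples of a culture, correlations of deviations from group means ran from -0.284 to 0.212, and 1 was over 0.1. The p-values measure the spread that groups and cultures leave between samples, arrays included, and the number of arrays limits the precision. "At least" folds set the mean of the detected group against the mean of the other group's array floors. Levels were compared between arrays for 1 probe, never between probes.

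The members and the lists were chosen with earlier results of these data known. Named with values were, per comparison, up to 8 members with the largest rise and up to 8 with the largest fall among those called, members detected on all 9 arrays, arms of 1 hairpin, members that share a seed and members detected in 1 group alone; miR-4732-5p and further members beside these were named after their values were seen. Alternatives changed the scaling, the normalization, the background correction, the filter, undetected values, the culture block and slide, and left out each sample in turn.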

Additional observations from a re-analysis of the deposited data

Results flagged for a closer look

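For 4 members 1 of the differences from Cell was called, the other had the opposite sign without being called, and LD and HD differed past the threshold (limma, Benjamini-Hochberg adjusted p under 0.05). Opposite changes from Cell were therefore not shown, and both comparisons share the Cell arrays. miR-6132 had 1.06 in LD over Cell, which was not called, and was lower than Cell in HD (-1.52); LD minus HD was 2.58 on the log2 scale. miR-5739 was called higher than Cell in LD (1.24) and not called in HD (-0.22), with LD minus HD at 1.45. miR-5088 had -0.85 in LD over Cell, which was not called, and was called higher than Cell in HD (0.96); LD minus HD was -1.81. miR-4667-5p had -0.15 in LD over Cell, which was not called, and was higher than Cell in HD (1.29); LD minus HD was -1.45. Beside these, miR-4640-5p also had opposite signs and a called difference between LD and HD, but was called in neither comparison with Cell, at -0.22 in LD and 0.66 in HD over Cell, with LD minus HD at -0.88. Detection on all 9 arrays holds for miR-4667-5p alone among the 5. Through LD alone miR-5739, and through HD alone miR-5088 and miR-4640-5p, entered the test.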

How the results depend on the processing

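Without the replicate block, which takes out culture, 66 of the 69 calls of members stayed and 3 ended, and the counts (higher and lower) were 11 and 2 in LD against Cell, 24 and 6 in HD against Cell and 5 and 21 in LD against HD. In LD against Cell, against 10 higher, 3 lower and a median of 0.26, the counts and medians were 9, 0 and 1.12 without scaling, 1, 10 and -0.47 with scaling on probes that all arrays detected, and 44, 0 and 2.48 on the spike controls. Quantile normalization gave 19 and 1, normexp 20 and 1, and 16 and 1 were called in the deposited log2 table. They were 8 and 1 with probes detected on 2 or more arrays, 7, 0 and 0.72 on those detected on all 9, while slide as a random block with culture fixed gave 1 and 1, an alternative chosen after seeing the data. In HD against Cell, against 24, 6 and 0.91, they were 16, 3 and 1.11 without scaling, 11, 14 and -0.54 on probes that all arrays detected, 42, 0 and 3.80 on the spike controls, 32, 3 and 0.36 by the quantile method, 32, 3 and 0.57 by normexp, and 28, 3 and 0.34 in the deposited table. They were 27, 6 and 0.37 with probes on 2 or more arrays, 10, 0 and 1.29 on all 9, and 17, 3 and 1.10 with slide and culture. In LD against HD, against 5, 21 and -0.71, they were 5, 6 and -0.05, 10, 13 and 0.02, and 2, 27 and -1.37 under the 3 scalings, in the same order, 8, 21 and -0.19 by the quantile method, 9, 23 and -0.33 by normexp, and 8, 21 and -0.18 in the deposited table. They were 4, 21 and -0.12 with probes on 2 or more arrays, 0, 9 and -1.07 on all 9, and 2 and 16 with undetected values missing. The counts and medians over all tested probes moved with the setting too. In LD against Cell, against 56, 147 and -0.54, they were 46, 49 and 0.32 without scaling, 20, 187 and -1.26 on probes that all arrays detected, and 202, 31 and 1.69 on the spike controls. In HD against Cell, against 102, 165 and -0.70, the 3 scalings gave 76, 111 and -0.51, 55, 220 and -2.16, and 223, 56 and 2.19. In LD against HD, against 86, 88 and 0.01, they gave 71, 29 and 0.68, 119, 53 and 0.75, and 52, 107 and -0.65. Slide as a random block without culture gave 12 and 4, 29 and 6, and 5 and 21 members in LD against Cell, HD against Cell and LD against HD. Over all tested probes it gave 66 and 152, 108 and 167, and 89 and 88, in the same order. With slide and culture the counts over all were 16 and 117, 79 and 133, and 69 and 85. Without the replicate block they were 55 and 146, 101 and 166, and 82 and 88. By the quantile method they were 76 and 118, 122 and 144, and 86 and 89. By normexp they were 81 and 120, 126 and 148, and 94 and 92. In the deposited table, with 44 members and 331 probes tested, they were 71 and 117, 119 and 144, and 86 and 87. Fewer probes were tested on all 9 arrays, 17 of the members and 81 in all. Over these 81 the counts were 39 and 5, 50 and 8, and 15 and 39, in the same order. With probes on 2 or more arrays, 642 in all, they were 52 and 143, 111 and 164, and 79 and 81. With undetected values missing, 50 and 63 of 190 probes were called in LD against HD. The cause of the other shifts was not tested.

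Leaving out single samples gave 6 to 13 higher, 1 to 4 lower and medians of 0.20 to 0.48 in LD against Cell, 19 to 27, 4 to 7 and 0.76 to 1.13 in HD against Cell, and 4 to 6, 16 to 23 and -0.97 to -0.62 in LD against HD. Over all tested probes it gave 32 to 65 higher and 132 to 149 lower in LD against Cell. The ranges were 91 to 108 and 153 to 167 in HD against Cell, and 69 to 94 and 68 to 97 in LD against HD. Signs turned for 7 members in HD against Cell with scaling on probes that all arrays detected: miR-4649-5p (-0.48), miR-4667-5p (-0.16), miR-4787-5p (-0.54), miR-5006-5p (-0.13), miR-5088 (-0.49), miR-6090 (-0.51) and miR-6125 (-0.58). On the spike controls they turned in HD for miR-4638-5p (0.04), miR-4664-5p (0.94), miR-4730 (1.57), miR-6132 (1.37) and miR-6724-5p (1.30), whose HD values include floors, and in LD against Cell for miR-4730 (1.22) and miR-6131 (1.28). miR-6131 also turned in LD against Cell under the quantile method (0.08), normexp (0.11) and in the deposited table (0.13). Spike controls had normalized medians of 2237.5 to 4561.3 in LD, 1817.8 to 2971.0 in HD and 13261.1 to 19323.6 in Cell.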
